A study of Mus musculus with 3 samples.

Results

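Ms4a1, Cd79a, Cd79b, Cd22, Pax5, Ebf1 and Blk are genes of B cell identity and of the B cell surface, and their levels in the mandibular condyle of WT, Dspp+/- and Dspp-/- mice are described here. The members were the rows of the deposited expression table whose gene symbol was one of these 7 names, out of 26970 genes in the table, and each name matched 1 row. The condyles came from mice aged 4 months on the C57BL/6 background. WT mice carried both functional copies of Dspp, Dspp+/- mice had lost 1 copy and Dspp-/- mice both, by a global knockout present in every tissue. They were collected with cartilage and subchondral bone still joined, so marrow inside the bone could be part of each sample. Per the study's methods, tissue of 3 animals went into the WT sample and the same number into the Dspp+/- sample. How many animals gave the Dspp-/- tissue is not given in the sources used here. The table holds 1 value per gene and genotype, so replicates were lacking, genotypes could not be tested against each other, and every difference below lies between single libraries.

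B cells form in the bone marrow. Ebf1 and Pax5 are transcription factors that commit progenitors to the B lineage and keep them there. Cd79a and Cd79b are the signalling chains that pair with membrane immunoglobulin to form the B cell receptor. Ms4a1 encodes CD20, a membrane protein that appears as B cells mature, and Cd22 encodes a sialic acid-binding lectin that restrains receptor signalling. Blk is a kinase of the Src family that acts below the receptor. Ebf1 is also active outside the B lineage, in adipocyte precursors and in marrow stromal cells.

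The values are FPKM, fragments scaled to exon length and to library depth, a unit read from the values because the table does not name it. Depth recovered from the FPKM steps was between 20241596 and 23613560 fragments per library. Xist, transcribed from the inactive X chromosome of female cells, was at 0.00551 FPKM in WT against 28.5 in Dspp+/- and 26.5 in Dspp-/-, so sex and genotype cannot be told apart in these libraries. Of all FPKM summed, the mitochondrial share was 25.0% (WT), 36.9% (Dspp+/-) and 37.3% (Dspp-/-). The scale for comparing libraries was log2(FPKM + 1), which understates differences of weakly expressed genes, and 13026 genes with mean FPKM of 1 or more were compared. A gene past 2-fold on that scale is called higher or lower here. Plain folds of FPKM are given with 95% Clopper-Pearson intervals from the fragments. They hold only the error of counting fragments, so variation between animals is not in them.

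All 7 members had more FPKM in both mutant libraries than in WT, and all 7 passed the filter on the mean. Cd22 (0.803 FPKM) and Blk (0.751) were under 1 FPKM in WT and passed it only through the mutant libraries. Their calls against WT are therefore not independent of the filter. Of all genes compared, 56.3% were above WT in Dspp+/- and 50.7% in Dspp-/-. In Dspp+/-, 6 of the 7 were at least 2-fold higher than WT, whereas 4.88% of all genes compared were. In Dspp-/-, 5 of the 7 were at least 2-fold higher, beside 4.05% of all genes compared. With libraries scaled on housekeeping genes, Cd79a no longer passed 2-fold in Dspp-/- (log2 ratio 0.89), which left 4. No member was lower past 2-fold, beside 2.86% of all genes in Dspp+/- and 1.37% in Dspp-/-. The members had median log2 ratios of 1.32 (Dspp+/-) and 1.18 (Dspp-/-), beside 0.058 and 0.0070 for all genes compared. Both comparisons use the same WT library. In whole tissue, more B cells and more RNA of these genes per cell cannot be told apart. The plot of FPKM by library shows the 7 genes.

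**Figure D1:**
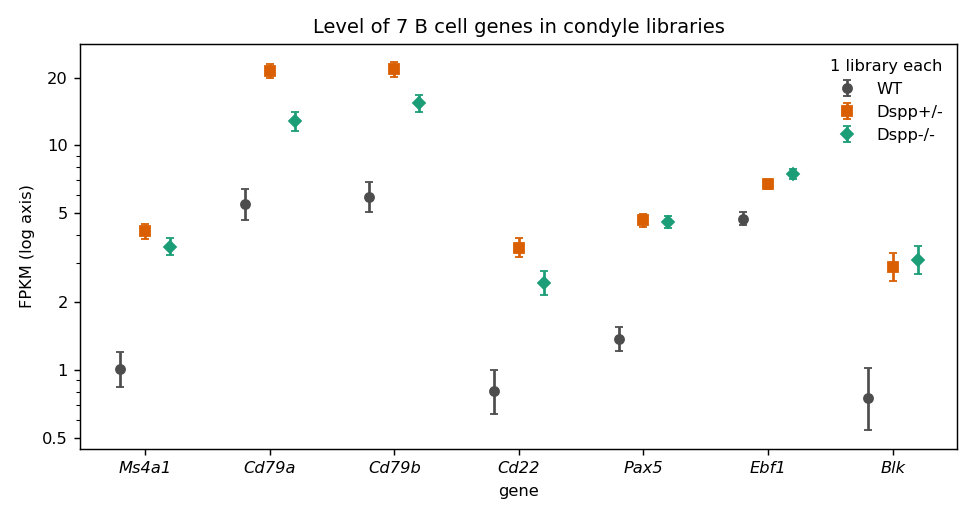
FPKM (log axis) of the 7 B cell genes in the WT, Dspp+/- and Dspp-/- libraries, with 1 library per genotype. Points are the deposited values and bars are exact 95% Poisson intervals of counting error. Every gene is lowest in WT, and Ebf1 has the smallest distance between WT and the mutant libraries.

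The chains of the B cell receptor were the most abundant members in the mutant libraries. Cd79a (ENSMUSG00000003379, chromosome 7, 24596806 to 24601622) had 5.49 FPKM (WT), 21.6 (Dspp+/-) and 12.9 (Dspp-/-), from 162, 742 and 417 fragments. Its fold over WT was 3.93 (interval 3.31 to 4.68) for Dspp+/- and 2.34 (interval 1.95 to 2.82) for Dspp-/-. The intervals of the mutant libraries do not overlap, so for Cd79a the Dspp+/- library stood above the Dspp-/- library by more than counting error. Cd79b (ENSMUSG00000040592, chromosome 11, 106202167 to 106205588) had 5.90 FPKM in WT against 21.8 in Dspp+/- and 15.4 in Dspp-/-. Its fold over WT was 3.69 (interval 3.12 to 4.39) for Dspp+/- and 2.61 (interval 2.19 to 3.12) for Dspp-/-. Both chains thus had the same order of libraries, and Cd79a and Cd79b stayed close to each other in level within each of them. Positions are those of the deposited table. The processing notes name the human build hg38, which cannot be the source of mouse genes, so the build of these positions is not stated. Only 589 of 26652 genes with a length had the same start and end in the GRCm38 annotation used for lengths. The deposited start of Cd79a, 24596806, lies far from its GRCm38 promoter stretch below, which starts at 24897247. The 2 sets of coordinates therefore cannot be compared directly.

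The other surface genes were at lower level and had folds of similar size. Ms4a1 (ENSMUSG00000024673, chromosome 19, 11227039 to 11243605) had 1.01 FPKM (WT), 4.14 (Dspp+/-) and 3.54 (Dspp-/-), from 126, 605 and 488 fragments. Its fold over WT was 4.12 (interval 3.39 to 5.03) for Dspp+/- and 3.52 (interval 2.89 to 4.32) for Dspp-/-. Ms4a1 had the same order of libraries as the receptor chains. Cd22 (ENSMUSG00000030577, chromosome 7, 30564827 to 30579767) had 0.803 FPKM in WT against 3.50 in Dspp+/- and 2.45 in Dspp-/-, from 82, 417 and 275 fragments. Its fold was 4.36 (3.43 to 5.59) in Dspp+/-, the largest of the members there, and 3.05 (2.38 to 3.95) in Dspp-/-. On the log2(FPKM + 1) scale Cd22 had a ratio of 0.94 in Dspp-/-, just short of the 2-fold threshold. Of the exon length of Cd22, 9.50% overlaps a gene on the other strand. The library kit named in the labels is not described as keeping strand, so reads of the overlapping gene cannot be told apart there.

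Blk, the kinase below the receptor, was the least abundant member in WT. It (ENSMUSG00000014453, chromosome 14, 63610285 to 63654486) had 0.751 FPKM (WT), 2.89 (Dspp+/-) and 3.10 (Dspp-/-), from 41, 184 and 186 fragments. The fold over WT was 3.85 (interval 2.73 to 5.54) for Dspp+/- and 4.13 (interval 2.93 to 5.94) for Dspp-/-, the largest of the members in Dspp-/-. With 41 fragments in WT, Blk had the widest intervals, and its mutant libraries did not differ by more than counting error.

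The transcription factors behaved unequally. Pax5 (ENSMUSG00000014030, chromosome 4, 44524757 to 44710487) had 1.38 FPKM in WT against 4.64 in Dspp+/- and 4.57 in Dspp-/-, from 247, 969 and 900 fragments. Its fold over WT was 3.36 (interval 2.92 to 3.88) for Dspp+/- and 3.31 (interval 2.88 to 3.83) for Dspp-/-. The mutant libraries were nearly level for Pax5, and 8.60% of its exon length overlaps genes on the other strand. Ebf1 (ENSMUSG00000057098, chromosome 11, 44508144 to 44898918) had 4.72 FPKM (WT), 6.71 (Dspp+/-) and 7.48 (Dspp-/-), from 933, 1545 and 1624 fragments. Its fold over WT was 1.42 (interval 1.31 to 1.54) for Dspp+/- and 1.58 (interval 1.46 to 1.72) for Dspp-/-. Ebf1 was the member with the smallest fold in both mutant libraries, and neither fold passed the threshold. The folds of the 6 other members ran from 3.36 to 4.36 in Dspp+/-, with no interval reaching below 2.73, and from 2.34 to 4.13 in Dspp-/-, with no interval reaching below 1.95. The plot of folds over WT shows Ebf1 apart from the other genes on this scale.

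**Figure D2:**
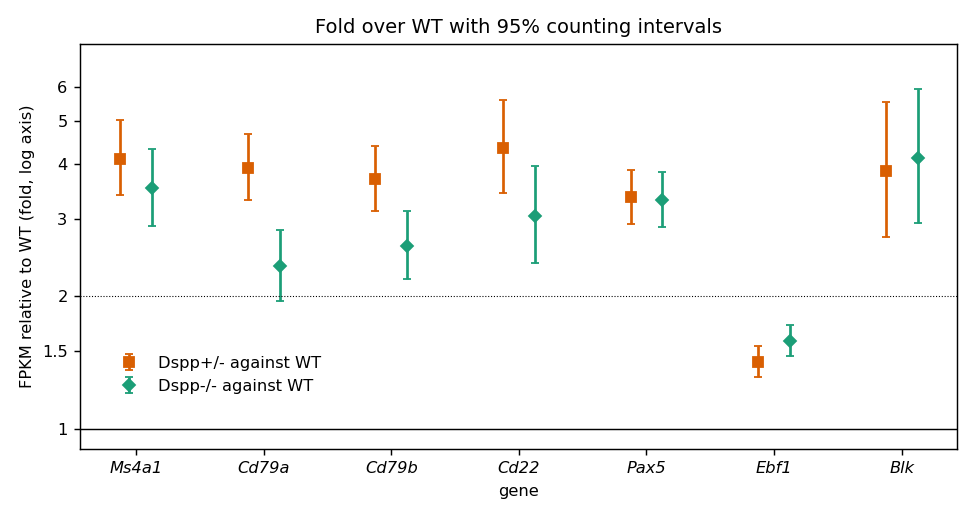
Fold of FPKM over WT (log axis) for each of the 7 genes in Dspp+/- and in Dspp-/-, with bars giving 95% Clopper-Pearson intervals of counting error. The dotted line marks 2-fold and the solid line no difference. Ebf1 lies at 1.42 and 1.58, under all intervals of the other genes, and Cd79a has a higher fold in Dspp+/- (3.93) than in Dspp-/- (2.34).

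The promoters of 4 of the 7 members, Pax5, Cd79a, Cd22 and Ebf1, matched entries of the RefSeq table (GRCm38.p6), and Ebf1 had an entry for each of its start sites. Cd79b, Ms4a1 and Blk had no entry. Each window holds 250 bases before the start and 50 after it. The windows were searched on both strands for the core letters bound by EBF factors (CCCNNGGG), for the octamer ATGCAAAT of POU factors and for the PU box GAGGAA of ETS factors. The stretches upstream of the start that lie outside annotated exons are shown for Cd79a, Cd22 and the second start site of Ebf1, the windows that held a match, with the matches in capitals.
Cd79a, chr7:24897247-24897380, plus strand: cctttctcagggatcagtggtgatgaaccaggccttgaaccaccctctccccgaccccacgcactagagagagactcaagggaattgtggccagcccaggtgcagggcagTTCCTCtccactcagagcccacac
Cd22, chr7:30879029-30879176, minus strand: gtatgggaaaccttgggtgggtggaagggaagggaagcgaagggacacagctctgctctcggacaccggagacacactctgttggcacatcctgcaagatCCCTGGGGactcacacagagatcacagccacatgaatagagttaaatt
Ebf1, chr11:44619978-44620227, plus strand: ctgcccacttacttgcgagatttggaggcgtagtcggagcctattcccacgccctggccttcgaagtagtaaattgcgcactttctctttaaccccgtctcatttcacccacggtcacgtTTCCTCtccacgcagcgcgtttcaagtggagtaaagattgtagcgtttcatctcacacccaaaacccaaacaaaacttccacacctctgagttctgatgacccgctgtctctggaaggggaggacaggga
The EBF core letters occurred once, in the Cd22 window, with their first base at position -48 from the start, and 13.7% of all 32851 windows hold them. The PU box occurred on the other strand in the Cd79a window at position -140 and in the second Ebf1 window at position -130, and 28.3% of all windows hold it. The octamer was in none of the 5 member windows and is in 1.74% of all windows. No 2 of the matches overlap. These are exact matches of fixed letters, so sites that deviate from them are missed, and a window without a match may still hold a site. Binding was not measured.

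Within each library the order of levels put Cd79b first. In WT, Cd79b (5.90 FPKM), Cd79a (5.49) and Ebf1 (4.72) followed each other with overlapping counting intervals. Pax5 (1.38 FPKM) came next, and Ms4a1 (1.01), Cd22 (0.803) and Blk (0.751) came last with each neighbour overlapping. In both mutant libraries Ebf1 lay under Cd79a by more than counting error. Pax5 and Ms4a1 overlapped in Dspp+/- and did not in Dspp-/-, where Blk (3.10 FPKM) stood above Cd22 (2.45) with overlapping intervals. By rank among all genes of the table, Cd79a was at percentile 75.7 in WT, 93.4 in Dspp+/- and 88.5 in Dspp-/-. Ebf1 moved least in rank, from percentile 73.3 to 78.1 and 80.7.

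Levels relative to Cd79a within a library do not depend on how libraries are scaled. The ratio of Cd79b to Cd79a was 1.07 (0.862 to 1.34) in WT, 1.01 (interval 0.912 to 1.12) for Dspp+/- and 1.20 (interval 1.05 to 1.37) for Dspp-/-, and the last interval lies above 1. The ratio of Ms4a1 was 0.183 (0.144 to 0.233) in WT and 0.192 (interval 0.172 to 0.214) for Dspp+/- and 0.276 (interval 0.241 to 0.315) for Dspp-/-. The Dspp-/- interval of Ms4a1 lies above those of WT and Dspp+/-, which overlap. For Pax5 the ratio was 0.251 (0.205 to 0.308) in WT, 0.215 (interval 0.195 to 0.237) for Dspp+/- and 0.355 (interval 0.316 to 0.400) for Dspp-/-. For Blk it was 0.137 (0.0946 to 0.194), 0.134 (0.113 to 0.158) and 0.241 (0.202 to 0.287) in the same order. As for Ms4a1, the Dspp-/- intervals of Pax5 and Blk lie above those of WT and Dspp+/-. All these ratios share Cd79a as denominator, whose Dspp+/- level was 1.68 times its Dspp-/- level. Pax5 (1.01) and Blk (0.932) themselves did not differ between the mutant libraries by more than counting error. The 3 genes are therefore not separate evidence of a pattern. Cd22 had ratios of 0.146 (0.111 to 0.192), 0.162 (0.144 to 0.183) and 0.191 (0.163 to 0.222), whose intervals all overlap. Ebf1 fell against WT, from 0.860 (0.727 to 1.02) in WT to 0.311 (interval 0.285 to 0.340) for Dspp+/- and 0.582 (interval 0.522 to 0.649) for Dspp-/-. Between the mutant libraries it too was higher in Dspp-/-. The plot of ratios to Cd79a shows these values.

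**Figure D3:**
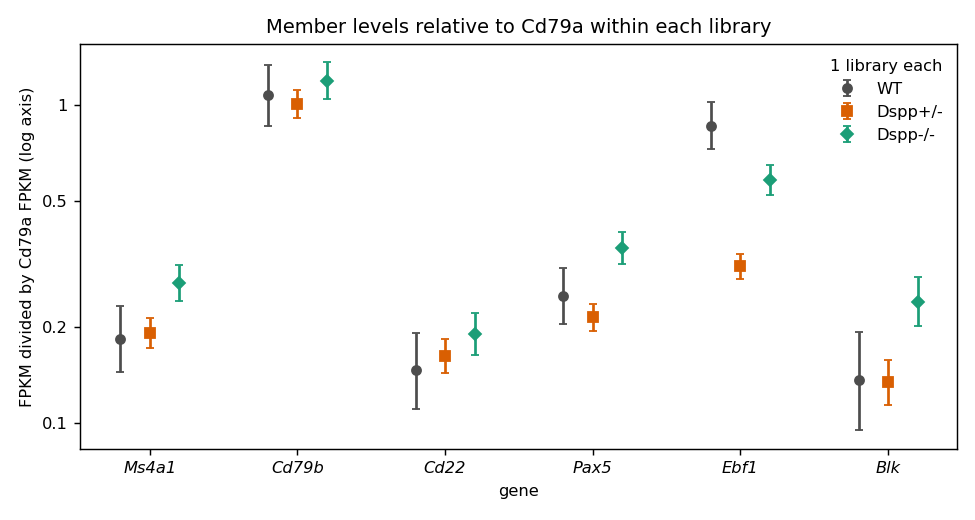
FPKM of each gene divided by the FPKM of Cd79a in the same library (log axis), with 95% Clopper-Pearson intervals of counting error. Ms4a1, Pax5 and Blk are highest in Dspp-/-, while Ebf1 is highest in WT (0.860) and lowest in Dspp+/- (0.311). All ratios share the level of Cd79a, which was itself lower in Dspp-/- than in Dspp+/-.

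The mutant libraries were also compared with each other. The Dspp+/- level was 1.68 times the Dspp-/- level for Cd79a (1.49 to 1.90), 1.43 times for Cd22 (1.22 to 1.67), 1.42 times for Cd79b (1.26 to 1.59) and 1.17 times for Ms4a1 (1.04 to 1.32). These 4 genes of the surface were higher in Dspp+/- by more than counting error. The ratio was 1.01 for Pax5 (0.926 to 1.11) and 0.932 for Blk (0.756 to 1.15), intervals that include no difference. Ebf1 was at 0.897 (0.836 to 0.962), lower in Dspp+/-. An interval above 1 is common at this depth: 34.5% of 12716 genes had one, and 25.4% had one below 1, and the 4 members above and 1 below stand beside those shares. No member passed 2-fold between the mutant libraries, where 0.798% of all genes compared were higher and 0.852% lower.

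Other genes of the B lineage were taken from 6 lists written for this comparison, on receptor partners, signalling, transcription factors, early B cells, immunoglobulin constant regions and plasma cells. The lists hold 82 genes apart from the members, and 67 passed the filter on the mean. Of these 67, 34 were at least 2-fold higher in Dspp+/- and 2 lower, and 25 were higher and 0 lower in Dspp-/-, with 1 library per genotype and no test. Over the 67 genes the medians were 1.01 (Dspp+/-) and 0.80 (Dspp-/-). Some genes called higher were under 1 FPKM in WT and passed the filter only through the mutant libraries, such as Il7r (0.773) and Bst1 (0.700). Fkbp11, called lower in Dspp+/-, was at 0.923 FPKM there.

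Receptor partners and surface proteins were the first of these lists. Of 16 genes compared, 9 were higher in Dspp+/- and 8 in Dspp-/-, none was lower, and the medians were 1.25 and 0.98. The most abundant were Cd24a, a surface glycoprotein that red cell and neutrophil precursors carry as well, with 51.4 FPKM in WT against 137 in Dspp+/- and 145 in Dspp-/-, and Cd74, the invariant chain of class II presentation, with 79.3, 131 and 97.8 FPKM.

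Signalling genes below the receptor had 6 of 13 higher in Dspp+/- and 2 of 13 in Dspp-/-, with medians of 1.00 and 0.80. Lyn, a kinase of the same family as Blk that myeloid cells share, had 7.85 FPKM in WT against 17.1 in Dspp+/- and 16.2 in Dspp-/-. Ptpn6, a phosphatase recruited by inhibitory receptors such as CD22, had 6.19, 18.7 and 16.0 FPKM. Both are expressed across blood cells. Among transcription factors of the lineage, 7 of 13 were higher in Dspp+/- and 4 of 13 in Dspp-/-, with medians of 1.03 and 0.62. Tcf3, an E protein found in many tissues, had 17.3 FPKM (WT), 19.1 (Dspp+/-) and 15.3 (Dspp-/-). Spi1, which myeloid cells and osteoclasts also express, had 16.3, 17.8 and 15.7 FPKM. Neither passed 2-fold, and the part of other cells in their levels was not tested. The largest ratios of the list were those of Ikzf1, named after its values were seen, with 2.49, 13.6 and 13.0 FPKM.

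Genes of early B cells did not move as 1 group. Of 9 compared, 3 were higher in each mutant library and none was lower, with medians of 0.54 and 0.67. Sox4, which many other cells express, had 22.1 FPKM in WT against 14.1 in Dspp+/- and 15.7 in Dspp-/-. Vpreb3, a partner of immunoglobulin chains in B cell precursors, had 3.57, 8.97 and 10.2 FPKM. The list was uneven between the mutant libraries, and its other genes were named after their values were seen. The Dspp+/- to Dspp-/- ratio was 1.07 for Rag1 (0.951 to 1.21), 0.788 for Rag2 (0.521 to 1.19), 0.880 for Vpreb3 (0.715 to 1.08) and 0.980 for Bst1 (0.804 to 1.19), intervals that include 1. Other genes of the list had intervals under 1. Igll1, part of the surrogate light chain and under the filter on the mean, had 22 fragments (WT), 9 (Dspp+/-) and 102 (Dspp-/-), a Dspp+/- to Dspp-/- ratio of 0.083 (0.037 to 0.164). Vpreb1, its partner, had 34, 16 and 39 fragments, a ratio of 0.387 (0.202 to 0.708). Dntt, which adds bases at immunoglobulin joints, had 38, 42 and 108 fragments, a ratio of 0.366 (0.250 to 0.528). Il7r, the receptor chain for the growth factor of B cell precursors, had 73, 299 and 399 fragments, with a ratio of 0.706 (0.606 to 0.822). The ratio was 0.816 for Cplx2 (0.714 to 0.933) and 0.90 for Sox4 (0.840 to 0.964). Vpreb2 had at most 1 fragment in a library, and fragments were not recovered for Akap12.

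The immunoglobulin constant regions were the B cell list with the largest medians, 1.86 in Dspp+/- and 1.39 in Dspp-/-, with 9 and 8 of 11 genes higher. Igkc had 301 FPKM in WT against 841 in Dspp+/- and 721 in Dspp-/-, and Ighm had 193, 292 and 332 FPKM. Ighd, whose product marks mature naive B cells, was named after its values were seen and had 1.77, 13.6 and 6.43 FPKM. Its Dspp+/- level was 2.12 times the Dspp-/- level (1.84 to 2.46). The list had no single direction between the mutant libraries. The genes past 2-fold there were the class-switched Igha, Ighg2b and Ighg2c, with ratios of 3.25 (3.06 to 3.46), 3.21 (2.99 to 3.45) and 2.37 (2.09 to 2.70), while Ighm had 0.881 (0.860 to 0.902) and Ighg3 0.685 (0.588 to 0.796). The plasma cell list had the opposite sign to the others, with medians of -0.49 and -0.35 over 5 genes, none higher and 2 lower in Dspp+/-. Both lower genes are made by other cells as well: Sdc1, a proteoglycan of epithelial and skeletal cells, had 23.6 FPKM (WT), 7.79 (Dspp+/-) and 12.5 (Dspp-/-), and Fkbp11, an enzyme of the secretory pathway, had 4.53, 0.923 and 2.46 FPKM. Whether other cells account for their lower levels was not tested. Prdm1, from the same list, was also below WT, with 3.47 FPKM (WT), 2.18 (Dspp+/-) and 2.51 (Dspp-/-). Its distance from WT exceeded counting error for each mutant library but stayed under 2-fold. The remaining genes compared were above WT. Xbp1 had 39.7, 42.2 and 41.0 FPKM, and Jchain, which joins secreted immunoglobulins, had 15.4, 28.4 and 26.0.

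**Figure D4:**
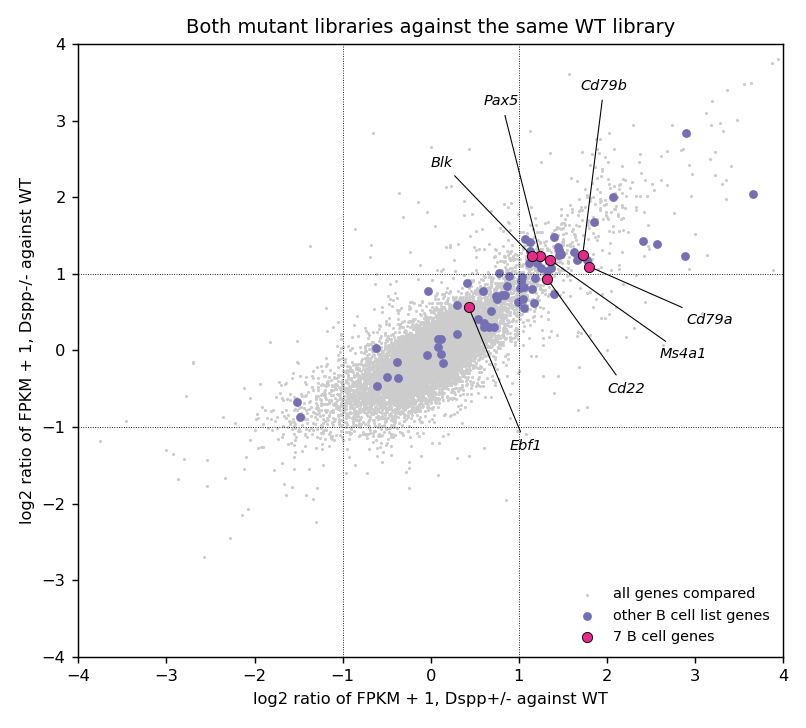
Log2 ratio of FPKM + 1 to WT in Dspp+/- (x axis) and Dspp-/- (y axis) for the 13026 genes compared (grey), the other B cell list genes (violet) and the 7 B cell genes (pink, named), with dotted lines at 2-fold. Both axes share the WT library, and 13 genes lie outside the range drawn. Of the 7 genes, 5 lie past 2-fold on both axes, Cd22 on the x axis only and Ebf1 on neither.

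Relatives of the members in their gene families were compared to see whether other family genes had like levels. The other Ebf genes were lower than Ebf1 in every library. Ebf2 had 0.727 FPKM in WT against 1.11 in Dspp+/- and 1.31 in Dspp-/-, Ebf3 had 2.51, 2.98 and 2.73 FPKM, and Ebf4 had 2.55, 1.56 and 1.5 FPKM. None passed 2-fold, as was so for Ebf1. Of the other Pax genes, Pax9, a patterning factor of the jaw and teeth, alone passed the filter, with 2.56, 1.63 and 2.34 FPKM. Pax9 passed 2-fold in neither mutant library, and Pax5 passed it in both.

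In the Ms4a family 3 of 8 relatives were higher in Dspp+/- and 2 in Dspp-/-. Ms4a3, a gene of granulocyte precursors, went from 0.472 FPKM in WT to 14.0 and 5.87, Ms4a4c from 0.621 to 3.14 and 2.28, and Ms4a6c from 2.24 to 6.86 and 5.09. The log2 ratios of Ms4a4a, Ms4a4d, Ms4a6b, Ms4a6d and Ms4a7 were positive but under 1. In the lectin family of Cd22, 3 of 5 relatives were higher in both mutant libraries: Siglecg, which B cells also carry, with 1.05, 4.29 and 3.32 FPKM, and the myeloid genes Cd33, with 2.51, 6.62 and 8.26 FPKM, and Siglece, with 1.42, 4.99 and 4.35 FPKM. Siglec1 and Siglech stayed under 2-fold. The Src kinases divided. Fgr, expressed in myeloid cells, was higher in both mutant libraries, with 1.37, 5.35 and 6.10 FPKM. Lyn passed 2-fold in Dspp+/-. Src was lower in Dspp+/-, with 12.1, 5.14 and 5.91 FPKM, and Fyn and Yes1 passed in neither direction.

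Genes of other cell types moved with the members in the same libraries, and their part in the result was not tested. The neutrophil list, led by S100a9 and S100a8, had all 11 genes higher in both mutant libraries, with medians of 2.02 and 2.52 and a summed level of 604 FPKM (WT), 2718 (Dspp+/-) and 3566 (Dspp-/-). The erythroid list, led by Hbb-bs and Hba-a1, had 11 of 12 genes higher in both, with medians of 2.05 and 2.20 and a summed level of 953, 3816 and 3715 FPKM. The proliferation list, led by Mki67 and Rrm2, had 10 and 9 of 12 genes higher, with medians of 1.32 and 1.18. Its medians were close to those of the B cell members, and those of the neutrophil and erythroid lists were larger. No gene of these 3 lists was at 0 in any library.

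Of the other blood and vessel lists, those of T cells, macrophages and endothelium were near WT. The T cell list, led by Trac and Cd4, had 4 of 13 genes past the filter and none past 2-fold, with medians of 0.24 and 0.05. Cd3e, a defining T cell gene named after its values were seen, had 2 fragments in WT against 30 in Dspp+/- and 6 in Dspp-/-, and Cd8b1 was at 0 in WT. Related genes of the list did not share the pattern of Cd3e. In the same order, Cd3d had 8, 9 and 9 fragments, Cd3g 1, 5 and 3, and Cd247 21, 37 and 30. In the natural killer list only Nkg7 was compared, a gene that myeloid precursors also express. It was higher in both mutant libraries, with log2 ratios of 3.30 and 2.17. The rest were under the filter. Klrd1, the next in level, had 8 fragments (WT), 34 (Dspp+/-) and 41 (Dspp-/-). In the same order, Klrb1c had 13, 38 and 28, Ncr1 8, 12 and 4, Gzma 9, 19 and 9, and Prf1 7, 27 and 7. The plasmacytoid dendritic list, led by Cox6a2 and Bst2, had medians of 0.55 and 0.16. Cox6a2 was also counted among skeletal muscle genes here. In each mutant library 1 of 5 genes was higher, and that gene was Ly6d, which B cell progenitors share. The macrophage list, led by Cd68 and C1qb, had medians of 0.03 and -0.13, and the endothelial list, led by Cdh5 and Eng, had 0.15 and 0.17, with no gene past 2-fold in either.

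Beside Ebf1, genes of marrow stroma and adipocytes were measured, since both cell types use it. The list had 2 of 11 genes higher in Dspp+/- and 3 in Dspp-/-, none lower, with medians of 0.51 and 0.69, and its summed level was 183 FPKM (WT), 301 (Dspp+/-) and 283 (Dspp-/-). None of its 11 genes was at 0 in a library. Lpl had 50.0, 120 and 96.5 FPKM and Cxcl12, the chemokine that holds B cell precursors in marrow, had 41.3, 67.5 and 55.6 FPKM. The list was mixed, with 8 genes above WT and 3 below in Dspp+/-, and 10 above and 1 below in Dspp-/-. Named after their values were seen, the 3 below in Dspp+/- were Plin1 (1.41, 0.501 and 4.61 FPKM), Foxc1 (15.5, 8.73 and 8.57) and Lepr (11.5, 10.1 and 14.8). Ebf1 had log2 ratios of 0.43 (Dspp+/-) and 0.57 (Dspp-/-), and the list of early B cell genes had medians of 0.54 and 0.67. The part of stromal and fat cells in the level of Ebf1 was not tested. The skeletal lists went the other way. The osteoblast list, led by Col1a1 and Col1a2, had 10 of 11 genes lower in Dspp+/- and 2 in Dspp-/-, with medians of -1.60 and -0.65. The chondrocyte list, led by Col2a1 and Comp, had 8 of 10 genes lower in Dspp+/- and 6 in Dspp-/-, with medians of -2.43 and -1.03.

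**Figure D5:**
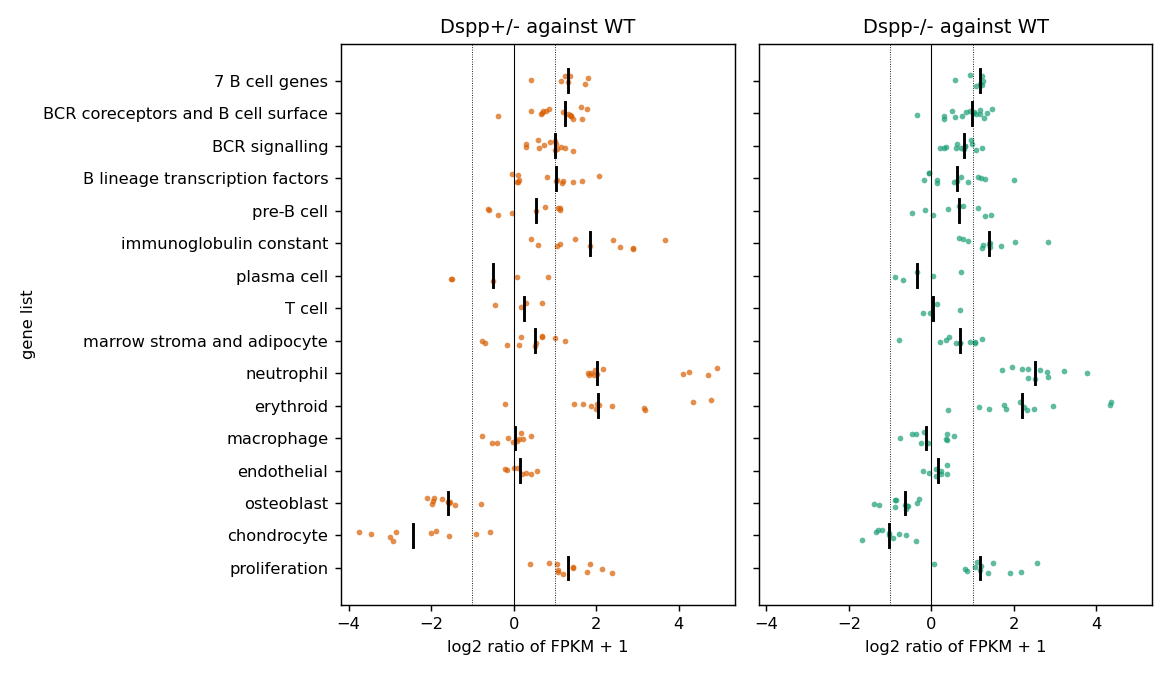
Log2 ratio of FPKM + 1 to WT for each gene (points) of 16 lists, in Dspp+/- (left) and Dspp-/- (right), with black bars for list medians and dotted lines at 2-fold. The 7 B cell genes have medians of 1.32 and 1.18, between the plasma cell list (-0.49 and -0.35) and the neutrophil list (2.02 and 2.52).

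The genes whose pattern was most like that of the members were sought among 12150 other genes with at least 20 fragments in each library. Likeness was the distance of a gene's pair of log2 ratios, from 3 libraries, to the members' medians of 1.32 and 1.18. The closest 5 were Ccne1, a cyclin of the start of S phase, at a distance of 0.031, Siglece at 0.034, BC035044 at 0.034, Cdc6, which loads the replication helicase, at 0.053 and Fignl1 at 0.062. Ccne1 had 0.427 FPKM in WT against 2.59 in Dspp+/- and 2.30 in Dspp-/-. None of the 5 is in the 6 B cell lists, and with 2 ratios per gene a small distance says no more than that the ratios were alike.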

How the data were processed

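The authors deposited 1 table with a value for 26970 genes in each of 3 libraries, WT, Dspp+/- and Dspp-/- (labelled WT, HE and HO). Its unit is not named, and the deposited values were read as FPKM. Processing notes of the submitters name FastQC 0.11.5, HISAT2 2.1.0, StringTie 1.3.3b and DESeq 1.28.0, which was not run here; filters and annotation are not given in the sources used here. The labels speak of triplicates, but 1 value per gene and genotype was available, taken as 1 pooled library.

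Multiplied by merged exon length (GENCODE M21) and divided by a constant found for each library, FPKM gave whole fragments in all 3 libraries for 26180 genes, 98.2% of those with a length. The tolerance was 0.05 plus an allowance for rounding that grows with the fragments of a gene. For genes with the most fragments that allowance lets any value pass. These fragments were used for counting intervals. Recovery was tested on simulated data. Folds are plain FPKM ratios, and calls use log2(FPKM + 1), mean FPKM of 1 or more, and 2-fold. The study's Kruskal–Wallis test needs replicates and was not run. Genes under a floor of 3 fragments get no fold.

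The members and lists were chosen with earlier results of these data known. Named genes are the 7 members, the 2 most abundant of each list, any past 2-fold against the sign of a B cell list, relatives with mean FPKM of 1 or more and the 5 nearest patterns, besides those named as chosen after seeing values. Sdc1, Fkbp11, Prdm1, Igha, Ighg2b, Ighg2c, Ighg3, Ly6d, Cd8b1, Cd3d, Cd3g and Cd247 were named outside these choices. So were the natural killer genes Klrb1c, Ncr1, Gzma and Prf1. No p-value is given. Dspp itself was not analysed here, so labels were not checked against it. Pax2 was not analysed here, and 1 relative that this rule covers is not reported here. Scripts ran in Python 3.11.15 with scipy 1.17.1 for intervals, pandas 2.3.3 for tables, matplotlib 3.10.9 for plots and numpy 2.4.6.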

Additional observations from a re-analysis of the deposited data

How the results depend on the processing

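No paired analysis was possible because each genotype has 1 library, and no library could be left out. Of 11 other settings, and 1 more chosen after seeing the data (no pseudocount, genes above 3 fragments in each library), only the 5 other scalings can turn a gene's direction. Under these 5 all 7 members stayed above WT, and Pax5 changed sign between the mutant libraries under median-ratio (-0.02) and upper-quartile scaling (-0.03). With a mean of at least 5 FPKM only 3 members, Cd79a, Cd79b and Ebf1, were compared: 2 were higher in Dspp+/- and 2 in Dspp-/-, the Dspp+/- median became 1.72, and the median between the mutant libraries went from 0.18 to 0.48. At that filter 281 of all 7133 genes were higher in Dspp+/- and 228 in Dspp-/-. A pseudocount of 5 shrinks low genes by construction: 2 members were higher in Dspp+/- and 0 in Dspp-/-, with medians of 0.60 and 0.51, and 13 and 6 of the other B cell genes were higher and 1 lower in Dspp+/-. Of all 13026 genes, 185 were then higher in Dspp+/- and 136 in Dspp-/-, and 156 were lower in Dspp+/-. A pseudocount of 0.1 gave medians of 1.87 and 1.5, and no pseudocount 1.94 and 1.61. At 4-fold 0 members were higher in Dspp+/- and 0 in Dspp-/-, and 6 and 3 other B cell genes were, with 0 lower in Dspp+/-. Among all 13026 genes, 124 were 4-fold higher in Dspp+/- and 103 in Dspp-/-, and 24 were lower in Dspp+/-. At 1.5-fold 1 member, Cd79a, was higher in Dspp+/- than in Dspp-/-, 45 other B cell genes were higher in Dspp-/-, and 4 and 2 were lower in Dspp+/- and Dspp-/-. At this threshold 563 of all 13026 genes were higher in Dspp+/- than in Dspp-/-. Against WT, 1152 were higher in Dspp-/-, and 1166 and 1070 were lower in Dspp+/- and Dspp-/-. With a mean of at least 5 FPKM 1 other B cell gene was lower in Dspp+/-, beside 272 of all 7133 genes. Housekeeping gene scaling ended the call of Cd79a in Dspp-/- (0.89), leaving 4 members higher there, gave 1 other B cell gene lower in Dspp-/-, moved the median of all genes to -0.10 in Dspp+/- and -0.18 in Dspp-/-, and turned 636 higher and 373 lower genes in Dspp+/- to 496 and 593, and 527 and 179 in Dspp-/- to 413 and 412; the causes were not tested. Scaling without mitochondrial genes moved that median to 0.16 in Dspp+/- and brought Cd22 in Dspp-/- past 2-fold (1.05). Among the members depth limits Blk most, with 41 fragments in WT; Ms4a3 had 18, Nkg7 and Klrd1 had 8 each, Cd3e 2 and Cd8b1 0.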
